A study of Mus musculus with 2 samples.

Results

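Transcripts called at the 3' ends of genes were examined in nascent RNA from mouse bone marrow-derived macrophages (BMDMs) with and without 1 hr of interleukin-4 (IL-4). They were taken as all called transcripts whose annotation begins with 3' UTR (the untranslated stretch of the mRNA after the stop codon) or TTS (transcription termination site), and whose detailed annotation names no repeat element. In all, 6236 of the 94487 called transcripts met this rule. The control library held 1551 3' UTR and 1206 TTS transcripts among 43122, and the IL-4 library held 1954 and 1525 among 51365. The macrophages came from wild-type mice of 8 to 12 weeks, on the C57BL/6 background by the study's methods, and both groups had been differentiated for 6 days with supernatant of L929 fibroblasts as the source of M-CSF, on which macrophages depend. The control cells received no further cytokine, and the other cells received IL-4 at 20 ng/ml for 1 hr. RNA polymerases were run on in isolated nuclei with Br-UTP, the labelled RNA was captured with an antibody (GRO-seq), and pooled duplicate reactions gave 1 library per condition from about 100 ng of RNA. No difference below therefore has a replicate check (n = 1 per condition) and no test was possible. As a check of the labelled cell type, 8 of 10 macrophage markers had a transcript in each library, with highest scores summing to 21.5 in control and 21.1 after IL-4, against 0 of 6 fibroblast and 0 of 4 dendritic cell markers by gene name in either library, 1 of 5 B cell markers in each, and 2 (control) and 1 (IL-4) of 5 for both T cells and neutrophils.

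RNA polymerase II does not stop where the mRNA ends. It transcribes through the 3' UTR and past a polyadenylation signal, the nascent RNA is cut there by the cleavage and polyadenylation complex, and the polymerase goes on for some distance before it is released. Nascent RNA from a protein-coding gene is therefore found both in the 3' UTR and downstream of the annotated end, where steady-state mRNA has no counterpart. Genes for small nucleolar RNAs (snoRNAs) and spliceosomal RNAs are so short that the region around their 3' end is most of the gene. IL-4 acts in macrophages through its receptor and the transcription factor STAT6, which drives the alternative activation program.

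The annotated 3' ends of some of the genes on which the results turn are shown here as the last 30 bases of the GENCODE M21 transcript (mm10), written 5' to 3' on the gene's strand, with the polyadenylation hexamer AATAAA or its common variant ATTAAA in capitals. They mark the point from which the distances below are counted. Where AATAAA occurs more than once, as in Irf2bp2, only the copy nearest the end is in capitals. Il4ra, Egr2, Irf4 and Tgm2 are IL-4 response genes with transcripts in their 3' UTR, Lyz2 is a macrophage gene named by the study as lower, Atp6v0a1 and Irf2bp2 had some of the most different and the highest scores, and the snoRNA gene Snord17 stands for genes with no such hexamer.
Il4ra, chr7:125579445-125579474, plus strand: ttcattctATTAAAattacttatcaagcaa
Egr2, chr10:67542159-67542188, plus strand: tatggtgtaAATAAAtacttttcaacaata
Irf4, chr13:30766947-30766976, plus strand: aatatttgataAATAAAggatttctagaaa
Tgm2, chr2:158116402-158116431, minus strand: tgaAATAAAggtctatttttcacattcaaa
Lyz2, chr10:117277331-117277360, minus strand: caaatggcATTAAAtcattttcaatgcaca
Atp6v0a1, chr11:101063690-101063719, plus strand: cggAATAAAgtgtgtttgactctcagaaaa
Irf2bp2, chr8:126588296-126588325, minus strand: ttaaataaaAATAAAattgggagcactgaa
Snord17, chr2:144265979-144266008, minus strand: caccaagatgagtggtgcaaatctgatcac

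One of these hexamers lay in the last 50 transcribed bases of 78.5% of the protein-coding host genes of control 3' UTR transcripts (922 of 1175) and of 79.5% after IL-4 (1115 of 1403). For coding hosts of TTS transcripts the shares were 76.3% (740 of 970) and 73.9% (923 of 1249). Over all 20502 protein-coding genes with a RefSeq-matched transcript the share was 72.3%, with AATAAA in 59.1% and only ATTAAA in 13.2%. Among the 155 noncoding host transcripts of the TTS class it was 25.2%. Where a hexamer was present, the median distance from its first base to the transcript end was 23 bases over all genes and 23 to 24 bases in the coding hosts of either class. Among 3' UTR transcripts on the host's strand, 84.4% in control and 81.0% after IL-4 lay wholly inside the host's last exon, so their bases could be read. Their median GC content was 49.7% (quartiles 41.7 and 55.2%) in control and 48.8% (42.1 and 54.2%) after IL-4, close to the 48.0% and 47.2% of the exons they lay in. AATAAA stood within 6.54% of them in control and 10.8% after IL-4, whose transcripts were longer.

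The first question was how the transcripts at 3' ends compared in number, length and score. The 3' UTR class made up 3.6% of control transcripts (95% Wilson interval 3.43 to 3.78%) and 3.8% of IL-4 transcripts (3.64 to 3.97%), and the TTS class 2.8% (2.65 to 2.96%) and 2.97% (2.83 to 3.12%). These intervals cover counting error only. The number of transcripts was 1.26 times the control number for the 3' UTR and 1.265 times for the TTS class, against 1.191 over all classes. Transcripts were longer after IL-4 in both classes. In 3' UTRs the median length went from 233 bp without to 331 bp with IL-4 (a ratio of 1.421), and at termination sites from 244 to 373 bp (1.529), against a ratio of 1.374 over all classes. Transcripts of 1000 bp or more numbered 11 in control and 57 after IL-4 in 3' UTRs, and 11 and 55 at termination sites. Over all classes they numbered 163 in control and 989 after IL-4, so the rise was general. A single length, 235 bp, was the most frequent in both classes and both libraries. It was that of 8.64% of 3' UTR and 7.55% of TTS transcripts in control and of 5.99% and 4.39% after IL-4. Over all classes the shares were 8.25% in control and 5.52% after IL-4.

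**Figure D1:**
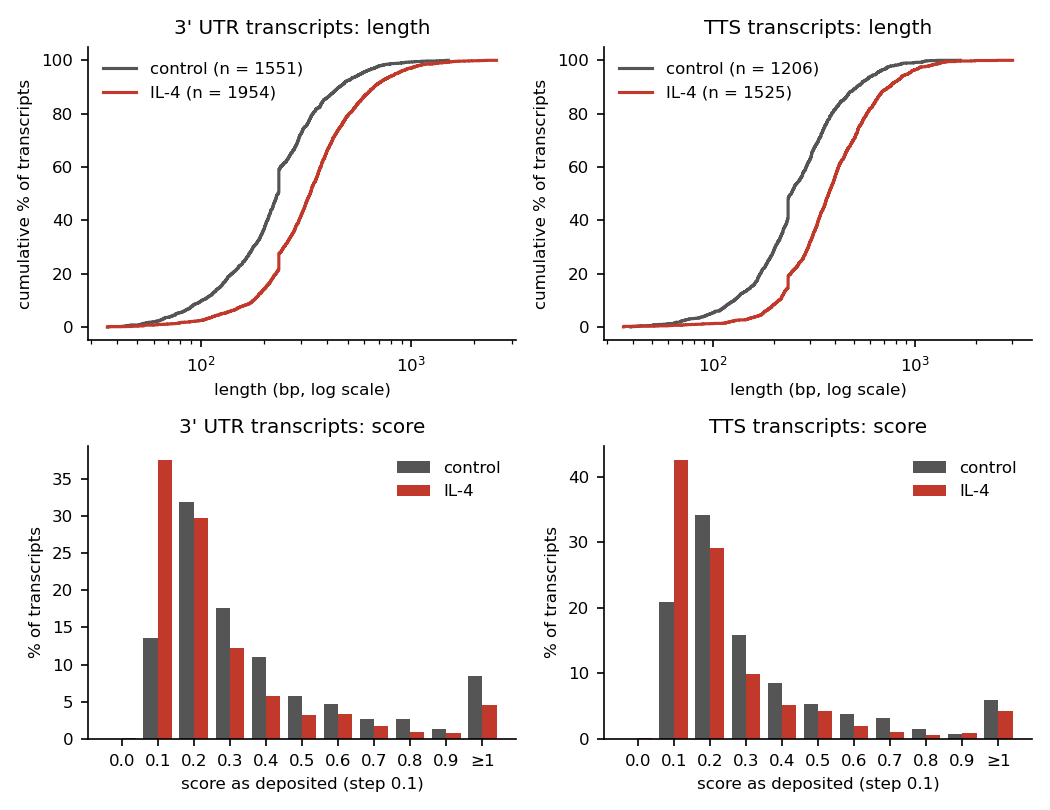
Cumulative share of transcripts by length in bp on a log scale (top) and share of transcripts at each printed score (bottom), for 3' UTR (left) and TTS transcripts (right) in the control (grey) and IL-4 (red) libraries. The IL-4 curves lie to the right of control (medians 331 against 233 bp and 373 against 244 bp), with a step at 235 bp in all 4, and the IL-4 bars are the taller ones at a score of 0.1.

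The score is the peak score that the transcript caller wrote, given to 1 decimal, with no statement of its scaling to library size. More transcripts had a low score after IL-4. In these bulk libraries fewer transcribing cells, less RNA per cell, unknown sequencing depth and the unknown scaling of the score cannot be told apart. The median was 0.3 in control and 0.2 after IL-4 in 3' UTRs and 0.2 in both libraries at termination sites, and the share of transcripts at 0.2 or less was 45.4% and 67.3% in 3' UTRs and 55.0% and 71.7% at termination sites. Over all classes that share was 45.4% and 63.9%. Scores of at least 1 were held by 132 3' UTR transcripts in control (8.51%) and 89 after IL-4 (4.55%), and by 71 (5.89%) and 65 (4.26%) TTS transcripts. Over all classes 7.33% in control and 3.85% after IL-4 held such scores. Some high scores came from very short segments. Of the 3' UTR transcripts at 1 or more, 22.7% in control and 14.6% after IL-4 were under 100 bp, against 27.5% and 16.5% over all classes. The 5 control and 31 IL-4 transcripts of the shortest length in the files, 36 bp, each had a score of exactly 1.0. Score times length, summed over the class, was 1.198 times the control value in 3' UTRs and 1.466 times at termination sites, against 0.9966 over all classes. It also rose in exons (1.217), promoters (1.167) and introns (1.141). In 5' UTRs (0.9333), noncoding genes (0.8899) and intergenic transcripts (0.8516) it fell. Few transcripts weighed heavily in the all-class value. The 210 noncoding ones held 6157906 of 14172016 in control, and the 285 after IL-4 held 5479729 of 14123421. Covered length was 1.866 times the control value in 3' UTRs (407.3 and 760 kb) and 1.867 times at termination sites (357.1 and 666.7 kb), against 1.714 times over all classes. The mean score per covered bp was 0.8753 in control and 0.5621 after IL-4 in 3' UTRs, and 0.4554 and 0.3577 at termination sites.

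One 3' UTR transcript carried about as much as all others together. It lay in the last exon of Lars2, which encodes the mitochondrial leucyl-tRNA synthetase, at chr9:123461945-123462192 in control and 123461945-123462195 after IL-4, with scores of 729.1 and 814.8. It accounted for 50.7% of the class's score times length in control and for 47.9% in the IL-4 library. The next highest scores were 9.5 and 7.2, and why this segment stood so far above them was not tested. Without it, score times length in 3' UTRs was 1.267 times the control value.

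The next comparison asked where the transcripts lay. Nearly all 3' UTR transcripts were on the strand of their host gene, 94.6% in control (93.3 to 95.6%) and 95.4% after IL-4 (94.4 to 96.3%). The median position of their midpoints, counted from the annotated end with negative values before it, was -931 bp for control and -913 bp for IL-4. At termination sites fewer were on the host's strand, 74.9% in control and 78.0% after IL-4. Their midpoints lay a median of 460 bp (control) and 512 bp (IL-4) past the end, and 83.8% and 83.6% fell inside the window of 100 bp before to 1000 bp after the annotated end by which HOMER assigns the class. The downstream edges of these transcripts lay a median of 606 bp past the end without IL-4 (quartiles 292 and 911 bp) and 735 bp past it with IL-4 (365 and 1017 bp). More than 1000 bp past the end was reached by 162 of 903 (17.9%) in control and 318 of 1189 (26.7%) after IL-4. Of these sense TTS transcripts, 195 in control (21.6%) and 231 after IL-4 (19.4%) also lay on another protein-coding gene of the same strand, and they are included in these distances. The class is set by the midpoint, so the edges of longer transcripts lie further out. Transcripts that ran further could also fall in the intergenic class. The edge distances therefore do not measure how far polymerase went past the end.

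**Figure D2:**
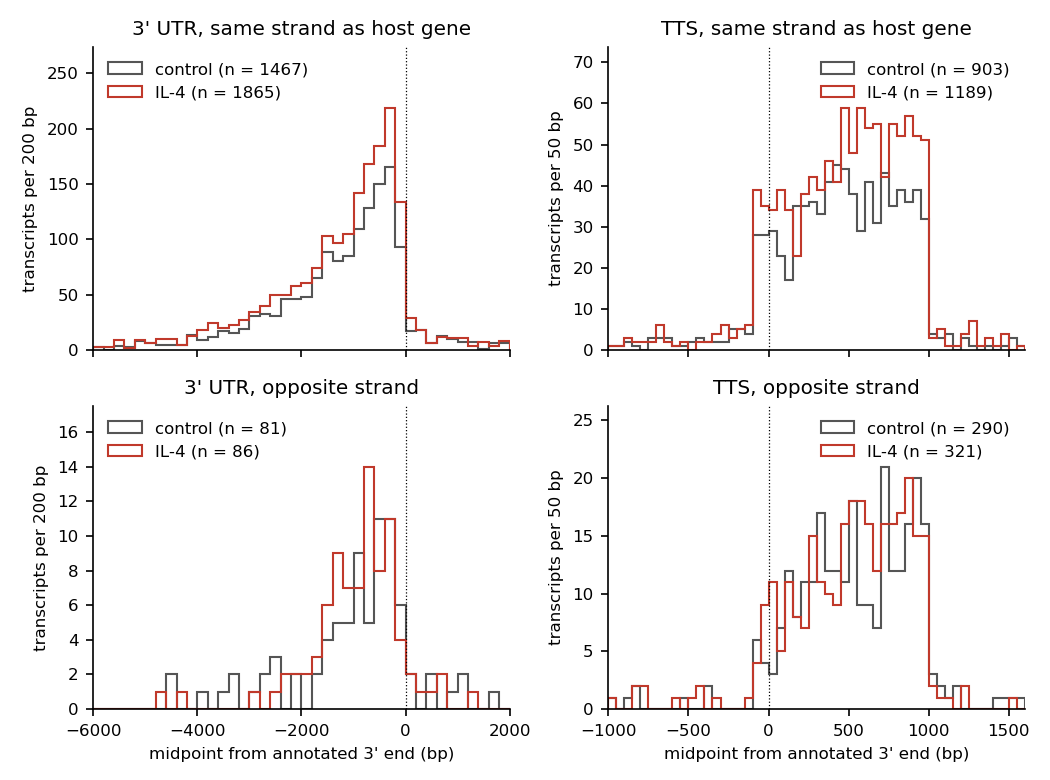
Number of transcripts by the distance of their midpoint from the annotated 3' end of the host transcript in bp (0, dotted line), for 3' UTR (left) and TTS transcripts (right) on the host's strand (top) and on the opposite strand (bottom), control in grey and IL-4 in red. 3' UTR transcripts gather before the end, TTS transcripts fill the 100 bp before to 1000 bp after it, and the opposite strand holds 290 control and 321 IL-4 TTS transcripts.

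The TTS class also held transcripts on the strand opposite to the host gene. The annotation ignores strand, and 24.0% of control (21.7 to 26.5%) and 21.0% of IL-4 TTS transcripts (19.1 to 23.2%) lay opposite to their host. Of these, 68.6% and 70.7% lay on another protein-coding gene on their own strand. The highest was in Leng8 at the end of Leng9, with a score of 11.0 in control and 9.4 after IL-4. The next was in Psap, the precursor of the lysosomal saposins, at the end of the cadherin gene Cdh23, with 6.6 in control and 3.7 after IL-4. A transcript of Stard9 at Cdan1 had 3.5 and 1.7, and one of Pfn1, which encodes the actin-binding protein profilin, at Rnf167 had 1.0 and 1.4.

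Transcripts present in both libraries were then matched one to one within a class where they shared 1 bp or more and the strand. There were 849 such pairs in 3' UTRs and 584 at termination sites. The IL-4 transcript was the longer in 72.6% of 3' UTR pairs, by a median of 72 bp, and in 73.1% of TTS pairs, by a median of 97 bp. The extra length lay mostly on the downstream side, with medians of 41 bp downstream and 6 bp upstream in 3' UTRs and of 62 and 7 bp at termination sites. Over the 23689 pairs of the other classes, the IL-4 transcript was the longer in 71.0%, with medians of 32 bp downstream and 4 bp upstream. Scores in the pairs were lower after IL-4 for 501 of 848 3' UTR pairs, equal for 197 and higher for 150, and for TTS pairs the numbers were 301, 143 and 140.

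No transcript of any class on the same strand in the other library overlapped 36.2% of control 3' UTR transcripts (562 of 1551, 33.9 to 38.7%) and 49.0% of those after IL-4 (958 of 1954, 46.8 to 51.2%). Over all classes the shares were 37.4% in control and 48.1% after IL-4. For TTS transcripts they were 39.7% (37.0 to 42.5%) and 52.6% (50.1 to 55.1%). Taking only scores of 0.3 or more, the order of the libraries was the opposite, with 20.1% in control and 17.4% after IL-4 in 3' UTRs and 21.7% and 17.6% at termination sites.

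Next it was asked which genes gained or lost a transcript of each class. A transcript was given to the gene named in its annotation (its host). Transcripts in 3' UTRs were found in 1774 genes in either library, of which 816 had one in both, 591 (33.3%) in the IL-4 library only (gained) and 367 (20.7%) in the control library only (lost). At termination sites the numbers were 1832 genes, 637 in both, 748 gained (40.8%) and 447 lost (24.4%). Over the gene and class pairs of all 7 genic classes, 26.6% were gained and 19.7% lost. Among exons 32.9% were gained and 23.1% lost, among introns 15.6% and 14.9%, and among promoters 27.1% and 18.8%. Most gained genes had a low value, taken as the highest score of the class in the gene: the median was 0.1, and 85.3% of gained 3' UTR genes and 84.2% of gained TTS genes stood at 0.2 or less. With transcripts of at least 0.3 alone, more genes were lost than gained, 303 against 134 in 3' UTRs and 277 against 175 at termination sites. With the 21561 highest-scoring transcripts of each library, 217 were gained and 228 lost in 3' UTRs, and 282 and 220 at termination sites.

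**Figure D3:**
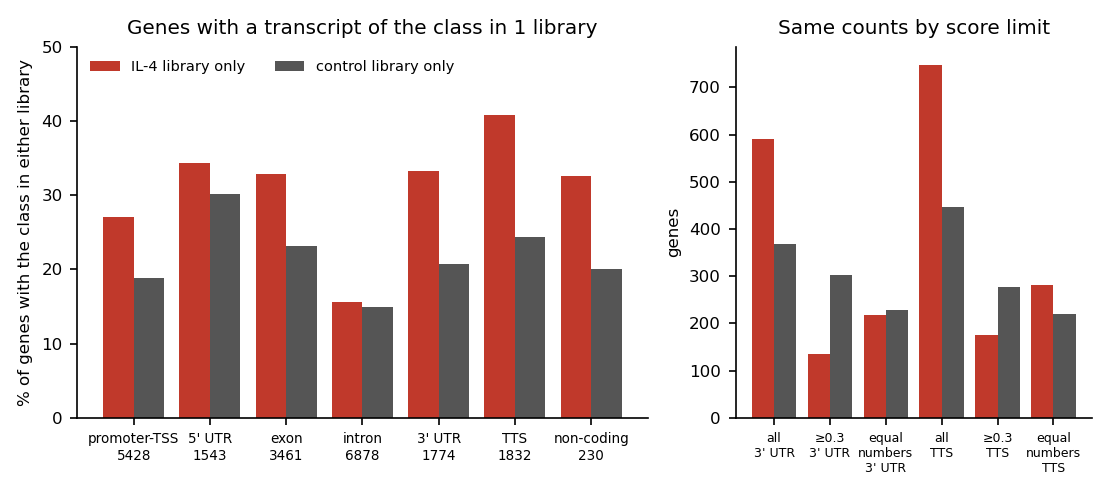
Left, percentage of genes with a transcript of each class in the IL-4 library only (red) or in the control library only (grey), with the number of genes in either library under each class. Right, number of such genes for 3' UTR and TTS transcripts over all scores, with scores of at least 0.3, and with the 21561 highest-scoring transcripts of each library. The red bar is higher in all 7 classes on the left, and the lower one in both classes on the right at scores of at least 0.3.

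Most gained or lost genes had a called transcript in the other library, at the same place or elsewhere in the gene. Of the 591 genes gained in 3' UTRs, 60 (10.2%) had their transcript overlapped by a control transcript of another class, and of the 531 others 481 (90.6%) had a control transcript elsewhere in the gene. For TTS genes, 103 of 748 gained (13.8%) were overlapped, and 541 of the 645 others (83.9%) were called elsewhere. Among lost genes, 37 of 367 in 3' UTRs (10.1%) and 81 of 447 at termination sites (18.1%) were overlapped by an IL-4 transcript. Neither overlapped nor called elsewhere were 50 gained and 51 lost 3' UTR genes, and 104 gained and 71 lost TTS genes. A missing call does not show that transcription was absent. The overlapping control transcripts were annotated as exon for 51.7% and as TTS for 38.3% of the overlapped 3' UTR genes, and as promoter for 40.8% and as 3' UTR for 20.4% of the overlapped TTS genes. The class is set by the midpoint of a transcript alone, so a segment called with other bounds can fall in another class.

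The highest gained and lost values held examples of both kinds. For Cebpb, a transcription factor of the myeloid lineage, a 3' UTR transcript of score 4.0 after IL-4 (chr2:167690054-167690297) shared 167 bp with a control transcript of score 10.0 annotated to the promoter of a neighbouring noncoding gene. Clec10a, a C-type lectin of macrophages, had a 3' UTR transcript of 0.9 after IL-4 over a control exon transcript of 0.5, and Ccdc9 one of 0.9 over a control exon transcript of 1.9. The gained 3' UTR transcripts of Ciapin1 and Gabarap, an autophagy protein, were 36 bp segments of score 1.0 with no overlapping control transcript. Among lost 3' UTR genes, Ctsd, the lysosomal protease cathepsin D, had a control transcript of 1.1 (chr7:142375562-142376603) that overlapped an IL-4 transcript of 0.5 and 1993 bp (chr7:142374484-142376476) in the TTS class. The other 4 of the highest lost 3' UTR genes, Nrp1 (1.2), Slc16a10 (0.8), Grip2 (0.8) and Ddx19b (0.8), had control transcripts of under 100 bp that no IL-4 transcript overlapped, that of Grip2 on the strand opposite to the gene.

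Small RNA genes made up much of the TTS class at high scores. TTS transcripts on a small RNA gene numbered 26 in control and 49 after IL-4, 2.16% (1.48 to 3.14%) and 3.21% (2.44 to 4.22%) of the class. These transcripts held 10.8% of its score times length in control and 22.6% after IL-4. Of the 20 highest TTS transcripts, 6 in control and 13 after IL-4 lay on such a gene. Without them, score times length at termination sites was 1.272 times the control value, in place of 1.466. Snord22, a box C/D snoRNA made from an intron of Snhg1, was the highest in both libraries with 28.1 in control and 32.2 after IL-4. Rnu11, the U11 RNA of the minor spliceosome, had 7.3 and 11.3, a transcript over Snord118, just past the end of Tmem107, had 8.1 and 9.3, and one past the end of Snora81 and within Eif4a2 had 6.9 and 5.1.

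The 5 highest gained TTS genes were all snoRNA genes, and all 5 had a control transcript at the same place in the promoter class. Snord17 had a TTS score of 16.6 after IL-4 in a transcript of 395 bp, and its control transcript had a score of 15.0 and 235 bp. Snord15b had 5.6 (486 bp) over a control transcript of 7.7 (120 bp), Snora75 5.2 (652 bp) over 7.8 (153 bp), Snora21 4.1 (340 bp) over 3.9 (235 bp), and Snora74a 2.2 (195 bp) over 1.4 (161 bp). The control scores were thus higher for 2 of the 5 and the lengths shorter for all 5. Of the 17 TTS genes gained with a value of at least 1, 9 lay on small RNA genes. The lost TTS gene with the highest value, Klhdc3 (1.6), was overlapped by an IL-4 transcript of 1.2 in the promoter class of Rrp36.

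Where a gene had a score in each library, the log2 of its IL-4 value divided by its control value was centred on the median of the 7905 genes with a value in any genic class, which was -0.36. At least 2-fold higher after IL-4 were 58 of 815 genes in 3' UTRs (7.12%) and at least 2-fold lower were 94 (11.5%). At termination sites 90 of 637 were higher (14.1%) and 69 lower (10.8%). Over all 7905 genes, 8.18% were higher and 8.72% lower. Those shares take a gene's highest score over all genic classes and not within a class, so they are not like for like. The class counts depend on the scale. Without centring 50 were higher and 272 lower in 3' UTRs and 78 and 192 at termination sites. By the gene's sum of score times length 166 were higher and 153 lower in 3' UTRs, the reverse order, and 141 and 111 at termination sites. The median centred log2 ratio was -0.05 in 3' UTRs (SD over genes 0.83) and 0.1 at termination sites (SD 0.91). Printed scores are rounded, with a true value up to 0.05 away, so each ratio has a rounding range, which is not a replicate error. Over that whole range, 29 genes remained at least 2-fold higher and 31 lower in 3' UTRs, and 35 and 23 at termination sites.

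**Figure D4:**
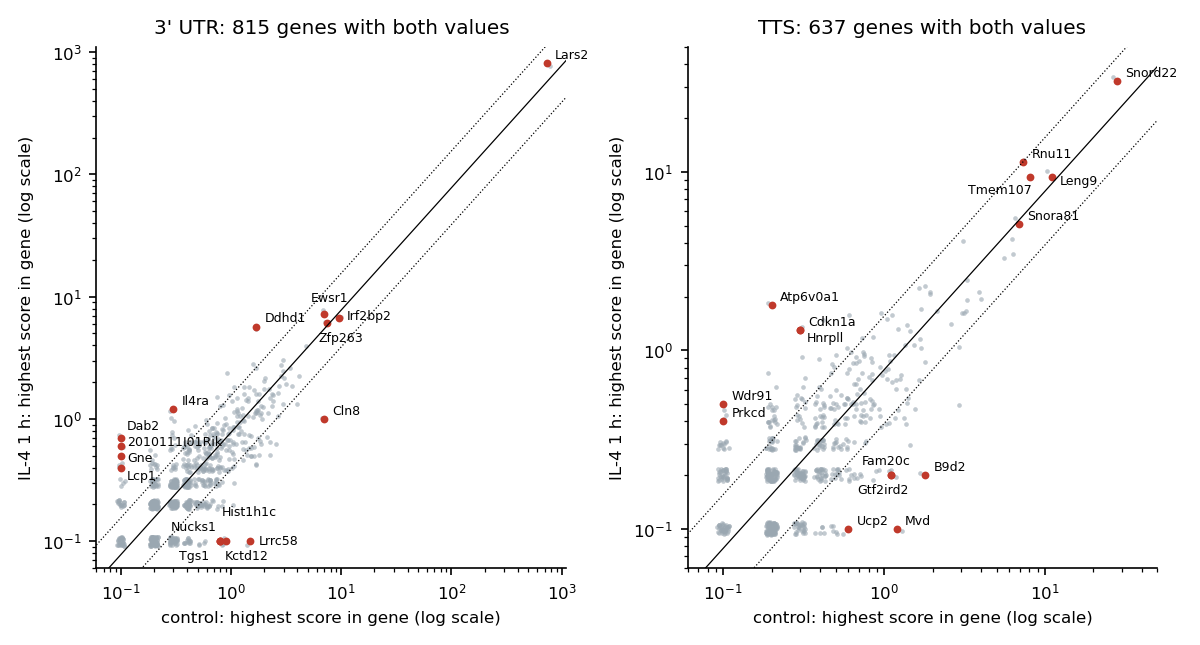
Highest score of each gene in the control (x) and IL-4 (y) libraries, both on log scales, for 3' UTR (left, 815 genes) and TTS transcripts (right, 637 genes). Grey points are jittered genes, red points are the named genes, the solid line is the median ratio of all genes and the dotted lines are 2-fold above and below it. Ddhd1, Il4ra and Atp6v0a1 lie above the upper dotted line, and Cln8 below the lower one.

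The largest increases in 3' UTRs, with the rounding range of the centred log2 ratio after each, belonged to Dab2, an endocytic adaptor (0.1 in control and 0.7 after IL-4, 3.17, 2.48 to 4.27), 2010111I01Rik (0.1 and 0.6, 2.95, 2.24 to 4.06), Gne, a sialic acid synthesis enzyme (0.1 and 0.5, 2.68, 1.95 to 3.82), Il4ra (0.3 and 1.2, 2.36, 2.08 to 2.68) and Lcp1, the actin-bundling protein L-plastin (0.1 and 0.4, 2.36, 1.58 to 3.53). The transcripts of Gne lay on the strand opposite to the gene in both libraries. The highest IL-4 transcript of Dab2 lay where control had none, and the one that overlapped the control transcript had 0.6. Ddhd1, a phospholipase gene, had 1.7 and 5.7 in overlapping segments of 138 and 152 bp (2.11, 2.05 to 2.16). Of the highest 3' UTR genes after Lars2, Irf2bp2 had 9.5 and 6.7, Zfp263 7.4 and 6.1, and Ewsr1 6.9 and 7.2, all within 2-fold. Cln8 had 6.9 and 1.0 (-2.42, -2.51 to -2.34), the control value from 67 bp. The 5 largest decreases were Lrrc58 (1.5 and 0.1), Hist1h1c (0.9 and 0.1), and Nucks1, Tgs1 and Kctd12 (0.8 and 0.1 each). In all 5 the highest transcripts of the libraries did not overlap each other, and in Hist1h1c they lay on opposite strands, so that these ratios compare different segments of the gene.

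At termination sites the largest increase was that of Atp6v0a1, a subunit of the lysosomal proton pump, from 0.2 in 410 bp (chr11:101063633-101064042) to 1.8 in 2528 bp (chr11:101062385-101064912), with a centred log2 ratio of 3.53 (3.17 to 3.99). The long IL-4 transcript also covered a pair of control 3' UTR transcripts of 0.5 and 0.4, so that the gene was lost in the 3' UTR class. Wdr91 had 0.1 and 0.5, Prkcd, a protein kinase C, 0.1 and 0.4, and Cdkn1a, the cell cycle inhibitor p21, and Hnrpll, a splicing regulator, each 0.3 and 1.3 (2.48, 2.2 to 2.8). The segments of Wdr91 did not overlap each other. Among the largest decreases, Ucp2, a mitochondrial carrier, had 0.6 and 0.1 in overlapping segments, and Gtf2ird2 1.1 and 0.2 on the strand opposite to the gene. For Mvd (1.2 and 0.1) and B9d2 (1.8 and 0.2) the control value lay on the strand of the host and the IL-4 value on the other strand, and the control transcript overlapped Cyba, a subunit of the phagocyte oxidase, at Mvd and Tgfb1, the cytokine TGF-beta, at B9d2. On the host's strand within 2000 bp of the end, whatever the class, the highest scores were 1.2 and 0.7 for Mvd and 1.8 and 1.3 for B9d2. Fam20c had 1.1 and 0.2 in segments that did not overlap each other.

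Genes of the IL-4 response were considered as a list of 20. In 3' UTRs, 8 of them were hosts: 7 were gained, 0 were lost, and Il4ra had values in both libraries. Among the gained, Mrc1, the mannose receptor, had 0.7 after IL-4, the signalling inhibitor Cish and the transcription factor Egr2 had 0.3 each, the transglutaminase Tgm2 had 0.2, and the chemokine gene Ccl24, the transcription factor Irf4 and the signalling inhibitor Socs3 had 0.1 each. The highest transcripts of all 7 lay on the host's strand and had no overlapping control transcript. The class as a whole gained 33.3%. The 7 values were low, and with scores of at least 0.3 only 3 of them (Mrc1, Cish and Egr2) counted as gained.

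Il4ra, the receptor chain that binds IL-4, had more, longer and higher-scoring 3' UTR transcripts after IL-4. Its control 3' UTR transcripts were 496 bp at 0.3 (chr7:125577044-125577539) and 328 bp at 0.3 (chr7:125579117-125579444). After IL-4 there were 3, of 879 bp at 0.8, 1228 bp at 0.5 and 466 bp at 1.2, the last (chr7:125579107-125579572) running across the end shown above. Past the end, a control TTS transcript of 0.7 and 681 bp was overlapped by an IL-4 transcript of 1.6 and 1613 bp, whose midpoint lay in the intergenic class, so that Il4ra was counted as lost at its termination site. Mrc1 was lost there in the same way, with a control TTS transcript of 0.1 inside an IL-4 intergenic transcript of 0.4.

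At termination sites the list had 8 hosts, of which 4 were gained, 3 lost (Il4ra, Mrc1 and Bcl6) and 1 present in both libraries (Stat6, 0.2 in each, on the opposite strand in control and on both strands after IL-4). The class as a whole gained 40.8% and lost 24.4%, and these counts lie near those shares. The opposite-strand transcripts at Stat6 lay on the neighbouring gene Nab2 in both libraries. Socs1, the feedback inhibitor of cytokine receptor signalling, had a TTS transcript of 1585 bp after IL-4 with a score of 1.1 (chr16:10782163-10783747) and none in control. Its midpoint lay at -712 bp from the gene's end in GENCODE, which differs there from the annotation behind the class. The other gained genes, Cish, Egr2 and Socs2, had 0.1, Egr2 with 1 transcript on each strand. The transcript of Cish was 1975 bp long, beginning before the annotated end and running past it.

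To set class changes aside, the highest score of any called transcript on the gene's strand within 2000 bp of the annotated end was also taken. By this measure 10 of the 12 IL-4 response genes with a 3' end transcript had a higher value after IL-4 or a value only there, and 8 a value only there. Over all 3001 genes with a transcript of either class and a placed end, the shares were 31.0% and 19.8%. A gene entered these counts only if a 3' end transcript was called in either library. The 8 genes with a value only after IL-4 thus entered through the IL-4 library alone. The list was also chosen with earlier results of these data known, so the contrast is a description and not a test. Socs1 had none in control and 2.5 after IL-4, Il4ra 0.7 and 1.6, Mrc1 0.1 and 0.9, Cish and Egr2 none and 0.3 each, Tgm2 none and 0.2, and Ccl24, Irf4, Socs2 and Socs3 none and 0.1 each. Stat6 had 0.3 and 0.2, and Bcl6, a repressor gene, had 0.1 in control only.

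**Figure D5:**
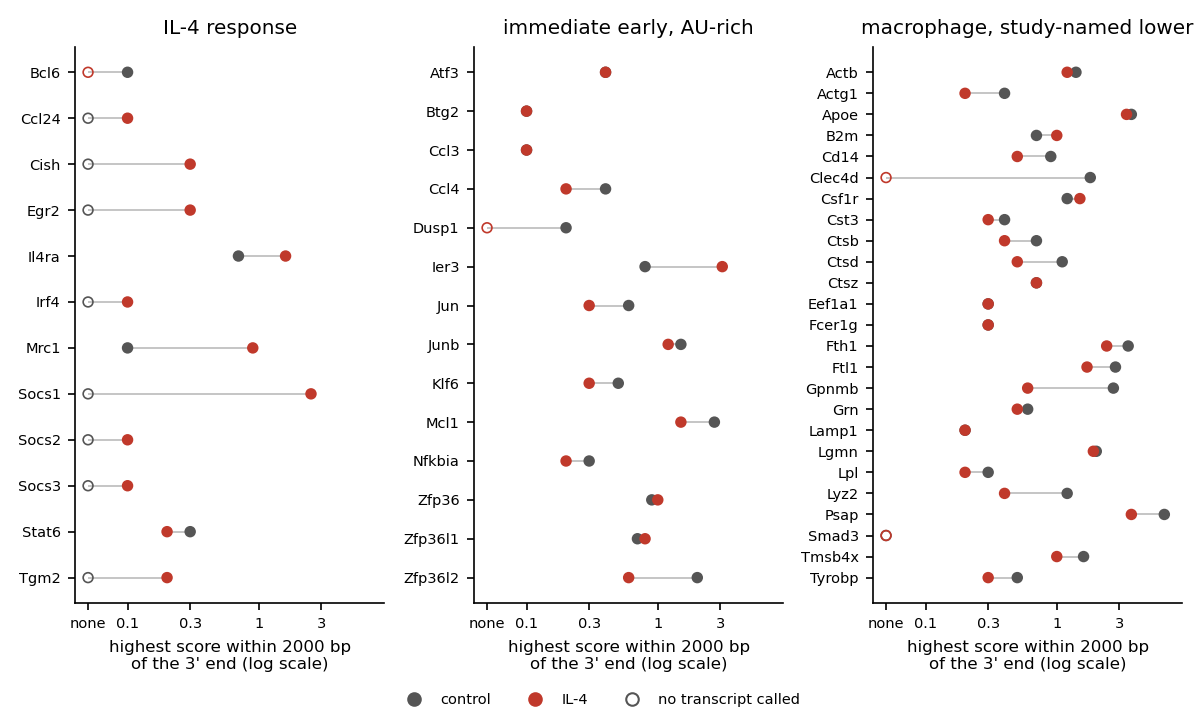
Highest score of any called transcript on the gene's strand within 2000 bp of the annotated 3' end (log scale) in the control (grey) and IL-4 (red) libraries, for IL-4 response genes (left), immediate early genes and genes of AU-rich mRNAs (middle) and macrophage genes with those the study names as lower (right). Open circles at "none" mark libraries without a called transcript, and equal values overlie each other. In the left panel 8 genes have an open control circle, and Bcl6 an open IL-4 one.

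Of the 10 genes that the study names as lower after IL-4, 4 had a 3' end transcript. The study named these genes, and the 3 it names as higher, mainly by mRNA after more than 1 hr of IL-4. It also had ChIP-seq at 1 hr for some of them. The values here are nascent segments at 1 hr from 1 library per condition, so the measures are not alike. Lyz2, lysozyme of macrophages, had 0.9 in control and 0.4 after IL-4 in its 3' UTR (centred log2 ratio -0.81, rounding range -1.08 to -0.55), where a control transcript of 1128 bp that reached past the annotated end faced an IL-4 transcript of 487 bp. At its termination site it had 0.4 in both libraries, in segments that did not overlap each other. Within 2000 bp of its end the highest scores were 1.2 and 0.4. Cd14, the LPS co-receptor, had 0.9 and 0.5 across its termination site (-0.49, -0.72 to -0.27). The lectin gene Clec4d had a 3' UTR transcript of 0.3 in control only, and within 2000 bp of its end 1.8 in control and none after IL-4. Smad3, which transmits TGF-beta signals, had transcripts of 0.2 in both classes in control only, both on the opposite strand. None of the 3 genes the study names as higher had a 3' end transcript in either library.

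Immediate early genes and genes with AU-rich mRNAs had 10 of 21 genes as hosts in 3' UTRs, with 6 in both libraries, 2 gained and 2 lost, and 13 at termination sites, with 6 in both, 3 gained and 4 lost. The class shares were 33.3% gained and 20.7% lost in 3' UTRs and 40.8% and 24.4% at termination sites. Of all 3' UTR genes with both values, 7.12% were 2-fold higher and 11.5% lower. None of the 6 3' UTR genes differed 2-fold after centring: Mcl1, an inhibitor of apoptosis, had 1.2 and 1.1, Zfp36l1, which binds AU-rich mRNAs, 0.6 and 0.6, its relative Zfp36 0.8 and 0.4, and Jun 0.6 and 0.3. Zfp36l2, of the same family, had 0.7 in its 3' UTR in control only, and 1.3 and 0.4 at its termination site (-1.34, -1.58 to -1.11). Ier3, an early response gene, had 0.6 and 1.7 (1.87, 1.71 to 2.03) in segments that also lie on Flot1, on the same strand. Klf6 had 0.3 and 0.1. The median centred log2 ratio of the list was -0.21 in 3' UTRs and 0.25 at termination sites, against -0.05 and 0.1 for all genes of the class. Of the 22 cleavage, polyadenylation and termination factors, 5 were hosts, 4 in each class, with 3 in both libraries and 1 gained in 3' UTRs. Pabpn1, the nuclear poly(A)-binding protein, had 1.0 and 1.6 in its 3' UTR (1.04, 0.92 to 1.16), and the other members had 0.4 or less.

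Abundant macrophage mRNAs were hosts of 3' UTR transcripts for 10 of 24 genes, with 8 in both libraries, 1 gained and 1 lost, and of TTS transcripts for 20, with 9 in both, 6 gained and 5 lost. The 3' UTR class as a whole gained 33.3% and lost 20.7%, and the TTS class gained 40.8% and lost 24.4%. In 3' UTRs 0 of 8 differed 2-fold after centring (median centred log2 ratio -0.37), among them Lgmn, the protease legumain, with 2.0 and 1.9, and Tmsb4x, thymosin beta, with 1.0 and 0.5. At termination sites 2 of 9 were higher and 1 lower (median 0.1). Of all genes with both values, 7.12% were 2-fold higher and 11.5% lower in 3' UTRs, and 14.1% and 10.8% at termination sites. Gpnmb, a lysosomal glycoprotein, had 2.7 and 0.5 (-2.07, -2.25 to -1.91), Ctsz, cathepsin Z, 0.2 and 0.7 (2.17, 1.74 to 2.68), B2m, the light chain of MHC class I, 0.3 and 0.7 (1.58, 1.26 to 1.95), and Actb, beta-actin, 1.4 and 1.1. The TTS segments of Ctsz did not overlap each other. Within 2000 bp of the end, whatever the class, the highest scores were 0.7 and 0.7 for Ctsz, 0.7 and 1.0 for B2m and 2.7 and 0.6 for Gpnmb. Whatever the class, all 10 of the 3' UTR and all 20 of the TTS genes had a transcript within 2000 bp of the end in both libraries, against 55.0% of all 3' UTR genes and 59.0% of all TTS genes.

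Ribosomal protein genes, which are short and highly transcribed, were hosts at termination sites for 30 of 82 genes. Of these, 20 were gained, 4 lost and 6 present in both, a gained share above the 40.8% of the class, and 19 of the 20 gained values were 0.1 or 0.2. With scores of at least 0.3, 2 genes were gained and 3 lost, and within 2000 bp of the end 8 were gained, 1 was lost and 21 had a transcript in both libraries, where 16.4% of all TTS genes were gained and 8.83% lost. The highest gained value was that of Rps18, 0.6, over a control transcript of 0.3 in the promoter class of a neighbouring gene. In 3' UTRs 3 ribosomal protein genes were hosts, all gained at 0.1, where the class gained 33.3%. Clustered histone genes, whose main mRNAs end in a stem-loop and not in a poly(A) tail, were hosts of TTS transcripts for 7 genes. Of these, 2 were in both libraries, 3 gained and 2 lost, where the class gained 40.8% and lost 24.4%. Hist1h4d had 1.9 and 2.0 and Hist2h4 0.7 and 0.9 there.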

How the data were processed

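Bone marrow-derived macrophages without further cytokine and after 1 hr of IL-4 gave 1 GRO-seq library each. The authors aligned reads to mm10 and called transcripts with HOMER in its GRO-seq mode, removed blacklisted regions and annotated each transcript by its midpoint, and the submitters' notes name BWA 0.7.10, SAMtools 0.1.19 and HOMER 4.2. The deposited value of each transcript is a peak score with a step of 0.1, whose scaling to library size is not given in the sources used here. Read counts and depth are therefore unknown, and no replicate or test was possible.

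Transcripts were read with Python 3.11.15, pandas 2.3.3 and NumPy 2.4.6. A host gene was taken from the accession in the annotation. Of 3085 accessions 2711 were named through the deposited tables' own pairs and 371 through a RefSeq table (GRCm38.p6), and 3 were not named. The gene name column, which gives the nearest promoter, differed from the host for 54.89 to 58.99% of transcripts. Ends, strands and sequences came from GENCODE M21, on which 6161 transcripts were placed by accession, 41 by symbol and 34 not at all. A gene's value was the highest score of its transcripts of a class, and log2 ratios were centred on the median over 7905 genes. Transcripts of 0.0 gave no ratio. Wilson intervals at 95% were computed for shares. Scripts were tested on simulated data.

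The genes named were, in each class, the 5 with the largest increase and decrease among those that reached the median gene value of the class in at least 1 library, the 5 highest gained, the 5 highest lost and the 5 highest of each library, and host genes of the lists. Other named genes were chosen after their values were seen. Members and lists were chosen with earlier results of these data known.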

Additional observations from a re-analysis of the deposited data

How the results depend on the processing

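Of 86 alternative values, 32 stayed close to the value reported (within 1.5 times for counts, within the counting interval for shares, or within the other criteria of size) and 54 were counted as moved. Another 8, which kept rows that name a repeat, were void because 0 such rows exist in these classes. The ratios of score times length (1.198 to 1.267 and 1.466 to 1.272) were counted as moved with no criterion of size. The 86 include the alternatives chosen after seeing the data, given further below. The order of paired values turned in places: at scores of at least 0.3 more genes were lost than gained in both classes and the shares with no counterpart were higher in control, and by score times length more 3' UTR genes were higher than lower. Taking the host's strand alone or using the nearest promoter's gene moved none of the class counts of gained and lost genes by more than 1.5 times. With scores of at least 0.3, 134 genes were gained and 303 lost in 3' UTRs, and 175 gained and 277 lost at termination sites. Genes 2-fold higher and lower were then 21 and 23 in 3' UTRs and 22 and 11 at termination sites. Transcripts with no counterpart were then 20.1 and 17.4% (control and IL-4) in 3' UTRs and 21.7 and 17.6% at termination sites, and the median lengths 212 and 318 bp, and 270 and 444 bp. When as many top-scoring transcripts were taken from one library as from the other, 217 were gained and 228 lost in 3' UTRs and 282 and 220 at termination sites, where the class made up 2.34% of control and 2.67% of IL-4 transcripts. By the sum of score times length, 166 genes were 2-fold higher and 153 lower in 3' UTRs, and 141 and 111 at termination sites. Over the whole rounding range these were 29 and 31, and 35 and 23. Without centring 272 were lower in 3' UTRs and 192 at termination sites, and centred on the class itself 97 were higher in 3' UTRs. An overlap of at least 50% left 43.0 and 67.3% of 3' UTR and 44.9 and 70.4% of TTS transcripts without a counterpart, and a counterpart of the same class 40.6 and 53.2%, and 48.7 and 59.7%. The median control score in 3' UTRs was 0.2 among transcripts of at least 200 bp.

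The following alternatives were chosen after seeing the data. IL-4 response genes gained were 3 in 3' UTRs and 1 at termination sites with scores of at least 0.3, and 3 and 2 with equal numbers. Those lost at termination sites were 1 under each of these and 1 within 2000 bp of the end. Ribosomal protein genes gained at termination sites were 2, 4 and 8 under these 3 settings, and 1 was lost within 2000 bp of the end. Score times length after IL-4 over control was 1.267 in 3' UTRs without Lars2 and 1.272 at termination sites without small RNA genes. The causes were not tested beyond what each setting leaves out. No paired analysis was possible because each condition has 1 library and the labels give no replicate numbers. Scores of 0.1 and 0.2 are so near the printed step that ratios of such genes carry wide rounding ranges, and whether they differ between cultures cannot be told from 1 library each.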

Other observations

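Both classes were called in the same gene for 246 genes in control, 20.8% of genes with a 3' UTR transcript and 22.7% of those with a TTS transcript, and for 377 genes after IL-4, 26.8% and 27.2%. Several transcripts of the class in 1 gene were held by 252 genes in control and 365 after IL-4 in 3' UTRs, and by 116 and 138 at termination sites. The most were 6 in control, in Arrb1, which encodes a beta-arrestin, and 7 after IL-4, in the DNA methyltransferase gene Dnmt3a.

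Genes with a 3' UTR transcript but none in any other class numbered 81 in control and 69 after IL-4, and genes with a TTS transcript alone 192 and 198. Irf2bp2, a transcriptional corepressor, had 3 3' UTR transcripts in each library at matching places, with scores of 9.5, 3.5 and 0.8 in control and 6.7, 4.2 and 0.6 after IL-4.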
